A study of Homo sapiens with 6 samples.

Results

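RNA from HCC1937 control cells was set against RNA from MDA-MB-231 control cells, to describe how the 2 human breast cancer lines of the series differ before any knockdown. Genes were joined on the symbol and identifier that both tables share, and a gene entered where either control library held 1 RPKM or more (reads per kilobase of exon scaled to the mapped reads of the library, a level per gene length). This kept 18445 of 63521 entries, of which 13881 reached 1 RPKM in both libraries, 1534 in HCC1937 alone and 3030 in MDA-MB-231 alone. At the edge of this rule, NUTM2A entered with 0.016 RPKM in HCC1937 and 1.04 RPKM in MDA-MB-231, and its neighbour NUTM2D, with 0.0116 RPKM in HCC1937 and 0.883 RPKM in MDA-MB-231, did not. The first group was HCC1937 cells given the control siRNA siNC and the second MDA-MB-231 cells given the same siNC, at 10 ng/ml in both. HCC1937 cells grew in RPMI 1640 with added bicarbonate, glucose and pyruvate, MDA-MB-231 cells in L-15 medium, and both media held fetal bovine serum, so the line and its medium cannot be told apart. The lines came from different suppliers, a cell bank for HCC1937 and a laboratory for MDA-MB-231.

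Each group holds 1 library, so the spread between cultures is unknown and no p-value is given. A second pair was available in the same lines after an siRNA against LARP7 (siLARP7), also 1 library each. LARP7 is a protein that stabilises the noncoding RNA 7SK, and the pair is a treated one, not a replicate, but it shares no library with the control pair. Values are therefore printed for siNC and then siLARP7 within each line. A gene was called higher or lower where the log2 ratio of RPKM + 1 in the siNC pair, HCC1937 over MDA-MB-231, was at least 1 in size, which is 2-fold on that scale. Fold differences in the text are ratios of the RPKM values, and their 95% intervals are exact Clopper-Pearson intervals from the approximate read numbers, which cover counting error only and not the spread between cultures. Where a library held no read, the fold is a lower bound against 3 reads.

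Both lines are established models of breast cancer without the hormone receptors, and they are usually placed at different points between an epithelial and a mesenchymal state. Epithelial cells hold together through E-cadherin junctions, tight junctions and desmosomes, and fill their cytoplasm with keratins. Mesenchymal cells build vimentin filaments and matrix, and factors of the ZEB, SNAIL and TWIST families repress the epithelial genes. ZEB factors and the microRNAs of the miR-200 family repress each other. HCC1937 is known as a basal-like line with a defective BRCA1 gene and MDA-MB-231 as a mesenchymal-like line with activated RAS signalling.

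Depth was 49.3 and 50.6 M reads in the HCC1937 libraries and 49.6 and 53.3 M reads in the MDA-MB-231 libraries, so that 1 read in 1 kb was worth 0.0187 to 0.0203 RPKM. The keratin genes KRT8 and KRT18, which mark epithelial cells, were read in every library. KRT8 had 302 and 316 RPKM in HCC1937, against 67.1 and 79.5 RPKM in MDA-MB-231. KRT18 had 278 and 269.9 RPKM in HCC1937, against 68.3 and 83.5 RPKM in MDA-MB-231. Hormone receptor genes were low: ESR1, the oestrogen receptor, had 0.628 and 0.509 RPKM in HCC1937, against 0.0207 and 0 RPKM in MDA-MB-231. PGR, the progesterone receptor, had 1 read in HCC1937 and none in MDA-MB-231. ERBB2, the HER2 receptor, had 6.56 and 7.14 RPKM in HCC1937, against 9.39 and 8.27 RPKM in MDA-MB-231, and was not called. Among 22 marker genes of leukocytes, endothelium, fibroblasts, melanocytes and Schwann cells, 3 reached 1 RPKM in either control library, and CD3E and TYROBP, which mark T cells and myeloid cells, were at 0 in all 4 libraries. The summed leukocyte markers stood at 2.36 and 2.7 RPKM in HCC1937, against 20.4 and 21.3 RPKM in MDA-MB-231, nearly all of it CD14, a lipopolysaccharide co-receptor, at 2.3 and 2.64 RPKM in HCC1937, against 20.2 and 21.2 RPKM in MDA-MB-231. The fibroblast markers summed to 0.615 and 0.823 RPKM in HCC1937, against 2.85 and 2.53 RPKM in MDA-MB-231. In such bulk RNA, expression in fewer cells and less RNA per cell cannot be told apart, and the part of these markers in the results below was not tested. LARP7 itself had 2.89 RPKM in siLARP7 and 5.62 RPKM in siNC cells of HCC1937, and 4.51 RPKM in siLARP7 and 8.65 RPKM in siNC cells of MDA-MB-231, lower in the knockdown of both lines.

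The miR-200 family is shown first because its members and ZEB1 are the classic opposed pair of this axis and because their hairpin genes gave reads in one line alone. The mature sequences below are from RefSeq on GRCh38.p14, 5′ to 3′, with the seed (bases 2 to 8) in capitals. The first 3 share one seed and the next 2 another.
hsa-miR-200b-3p: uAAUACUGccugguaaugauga
hsa-miR-200c-3p: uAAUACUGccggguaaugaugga
hsa-miR-429: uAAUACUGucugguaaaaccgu
hsa-miR-200a-3p: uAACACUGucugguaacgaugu
hsa-miR-141-3p: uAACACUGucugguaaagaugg
hsa-miR-221-3p: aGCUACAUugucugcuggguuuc
hsa-miR-934: uGUCUACUacuggagacacugg

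Reads over a hairpin gene can come from longer transcripts and are no measure of the mature microRNA. Over the 5 hairpin genes of the family, 15 and 4 reads fell in HCC1937 and 0 and 0 in MDA-MB-231, and the single genes held 2 to 5 reads in the HCC1937 siNC library. At such numbers the family is described and no member compared. MIR221, the hairpin gene of a microRNA known to be high in mesenchymal-like breast lines, went the other way, with 2 and 0 reads in HCC1937, against 52 and 65 reads in MDA-MB-231. MIR934 held 106 and 118 reads in HCC1937 and none in MDA-MB-231, and it lies within VGLL1, described below, whose own transcript can give these reads. MIR222, beside MIR221, held 1 and 0 reads in HCC1937 and 3 and 0 reads in MDA-MB-231, too few to compare. These 8 hairpin genes were picked with their values in view.

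Across all genes tested, 2577 (14.0%) were called higher in HCC1937 and 3946 (21.4%) lower, so that 35.4% of genes were called in either direction. The counts of each list below are to be read against these shares. As an alternative, a smooth trend of the log2 ratio on GC content, gene length and level was removed, and calls lost that way are named beside the gene. The median log2 ratio over these genes was -0.17. Among the 12257 protein-coding genes, 13.3% were higher and 19.5% lower. Of the 6523 called genes, 5371 (82.3%) were called the same way in the siLARP7 pair, where 14.2% of genes were higher, 28.2% lower and 42.5% either, and they made 68.8% of that pair's 7807 calls. In 1 gene the pairs were called in opposite directions. Over protein-coding genes, the SD of the log2 ratio was 1.19 between the lines, against 0.33 between siLARP7 and siNC within HCC1937 and 0.25 within MDA-MB-231. Both HCC1937 libraries lay above both MDA-MB-231 libraries in 2551 of the 2577 higher genes, and below them in 3899 of the 3946 lower genes, beside 32.7% and 49.7% over all genes tested. At 0 in the MDA-MB-231 siNC library were 207 of the higher genes, and at 0 in the HCC1937 siNC library 222 of the lower ones. Protein-coding genes at 10 RPKM or more in both HCC1937 libraries and at 0 in both MDA-MB-231 libraries numbered 26, and those with the reverse pattern numbered 4.

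**Figure D1:**
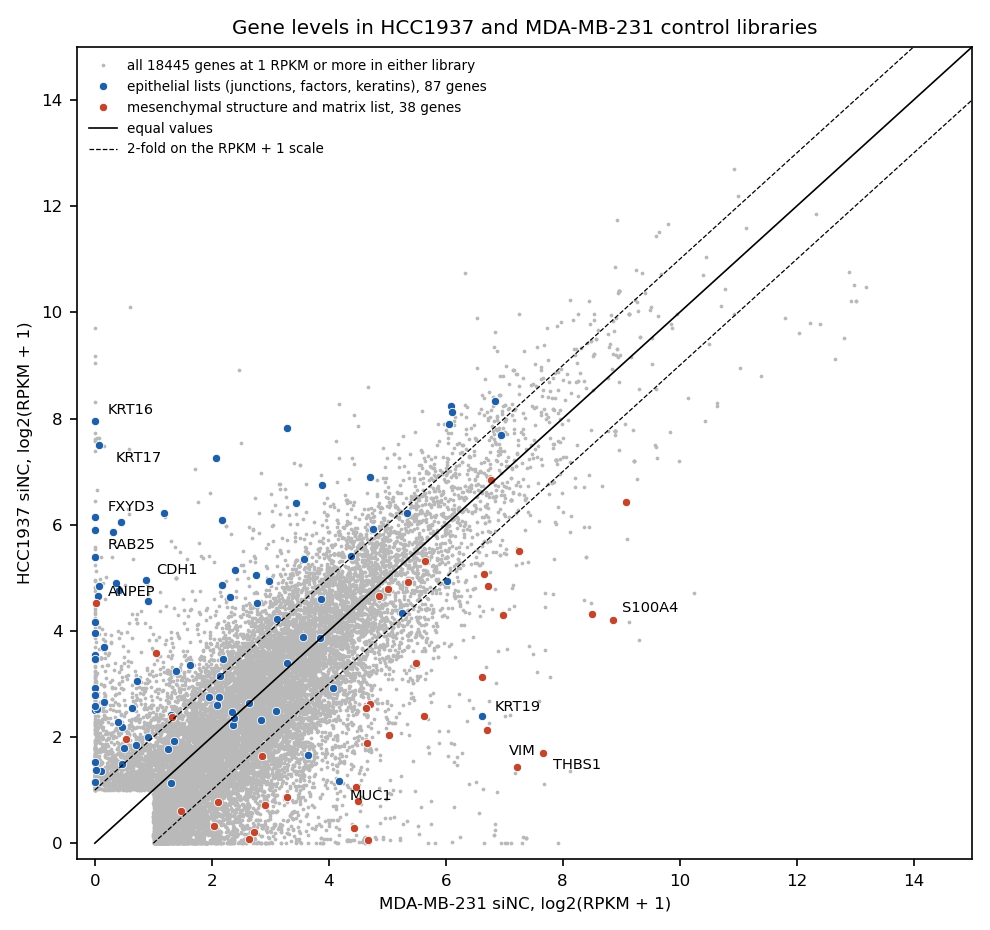
Level of each gene in the HCC1937 siNC library (vertical axis) against the MDA-MB-231 siNC library (horizontal axis), both as log2(RPKM + 1), 1 library per axis, with the solid line at equal values and dashed lines at 2-fold. Blue points, the epithelial lists, mostly lie above the upper dashed line, with KRT19 and MUC1 among the exceptions below, and red points, the mesenchymal list, mostly lie below the lower dashed line, with ANPEP among the exceptions above.

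The highest and lowest protein-coding genes by log2 ratio, among those called the same way in both pairs, give the outline of the contrast. Of the 12 highest, KLK5, a secreted serine protease of stratified epithelium, had 839 and 1031 RPKM in HCC1937, against 0 and 0 RPKM in MDA-MB-231, and its log2 ratio was 9.71. PI3, the elastase inhibitor elafin, had 1100.5 and 1228 RPKM in HCC1937, against 0.524 and 0.357 RPKM in MDA-MB-231, a level 2099.6-fold higher (95% interval 1273 to 3752). SLPI, a second secreted protease inhibitor, had 531 and 559 RPKM in HCC1937, against 0 and 0.0315 RPKM in MDA-MB-231. S100A9, a calcium-binding protein of calprotectin, had 582 and 681 RPKM in HCC1937, against 0 and 0 RPKM in MDA-MB-231. These 4 genes were abundant in both HCC1937 libraries and at or near 0 in both MDA-MB-231 libraries. S100P, a calcium-binding protein, had 198 and 217 RPKM in HCC1937, against 0.0473 and 0.0586 RPKM in MDA-MB-231. S100A14, another of that family, had 178 and 219 RPKM in HCC1937, against 0.111 and 0.132 RPKM in MDA-MB-231. CRABP2, which carries retinoic acid to the nucleus, had 480.0 and 798 RPKM in HCC1937, against 4.49 and 5.03 RPKM in MDA-MB-231, a level 107-fold higher (95% interval 94.3 to 122). The remaining members of this group, KRT16, KRT17, KLK6, KLK10 and FXYD3, are given with their families below.

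Of the 12 lowest, DKK1, a secreted Wnt antagonist, had 1.55 and 0.752 RPKM in HCC1937, against 277 and 254 RPKM in MDA-MB-231, a level 179-fold lower (95% interval 154 to 209). LOXL4, a lysyl oxidase that crosslinks collagen, had 0.189 and 0.168 RPKM in HCC1937, against 113 and 105 RPKM in MDA-MB-231. GPR116, an adhesion G protein-coupled receptor, had 0.0181 and 0.0265 RPKM in HCC1937, against 68 and 56.8 RPKM in MDA-MB-231. ANKRD1, a nuclear target of YAP signalling, had 0.492 and 0.349 RPKM in HCC1937, against 94.1 and 91.7 RPKM in MDA-MB-231. These 4 genes were abundant in both MDA-MB-231 libraries and low in both HCC1937 libraries, and were chosen through their call in both pairs. CST3, the protease inhibitor cystatin C, had 0.939 and 0.797 RPKM in HCC1937, against 117 and 128 RPKM in MDA-MB-231. ADAM8, a cell-surface metalloprotease, had 0.607 and 0.326 RPKM in HCC1937, against 69.7 and 66.2 RPKM in MDA-MB-231. The cancer-testis genes XAGE1A, XAGE1B and SPANXB2, normally restricted to the testis, were at 0 in both HCC1937 libraries; XAGE1A had 132 and 125 RPKM in MDA-MB-231 and SPANXB2 55.5 and 41.9 RPKM. The XAGE1 and SPANXB genes have near-identical copies, so the split of reads among copies is uncertain. THBS1, PLAT and VIM, also in this group, follow with their families.

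Epithelial adhesion genes were mostly higher in HCC1937. Of 24 tested, 21 were called higher and 1 lower, beside 14.0% and 21.4% of all genes, and the median log2 ratio was 3.24 (3.38 in the siLARP7 pair, and 2.93 to 4.62 over the alternative settings). Of these genes, 11 entered only through their level in HCC1937 and so had to be higher there, and the count is a description. CDH1, which encodes E-cadherin, had 30.2 and 20.4 RPKM in HCC1937, against 0.835 and 0.503 RPKM in MDA-MB-231, and in the siNC pair was 36.1-fold higher (95% interval 31.9 to 41). EPCAM, the epithelial cell adhesion molecule, had 67.4 and 62.6 RPKM in HCC1937, against 3.5 and 3.34 RPKM in MDA-MB-231, a level 19.3-fold higher (95% interval 17.5 to 21.3). Both genes were thus low in MDA-MB-231 but above 0. FXYD3, a regulator of the sodium pump, had 69.6 and 93.6 RPKM in HCC1937, against 0 and 0 RPKM in MDA-MB-231, which makes it at least 3837-fold higher. RAB25, an epithelial trafficking GTPase, had 58.3 and 66.3 RPKM in HCC1937, against 0 and 0.0777 RPKM in MDA-MB-231. CD24, a mucin-like surface glycoprotein, had 65.7 and 63.5 RPKM in HCC1937, against 0.361 and 0.654 RPKM in MDA-MB-231. The exception was MUC1, a membrane mucin of luminal epithelium, with 1.25 and 2.21 RPKM in HCC1937, against 17.1 and 22.2 RPKM in MDA-MB-231, a level 13.7-fold lower (95% interval 12.1 to 15.4). CTNND1, which encodes p120 catenin, was abundant in both lines and not called, with 23.4 and 19.4 RPKM in HCC1937, against 13.5 and 14.1 RPKM in MDA-MB-231.

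Tight junction and polarity genes were split. Of 19 tested, 8 were higher and 3 lower, beside 14.0% and 21.4% over all genes; 4 of the 19 entered through HCC1937 only, and the median log2 ratio was 0.64. CRB3, an apical polarity protein, had 28.7 and 35.4 RPKM in HCC1937, against 0.279 and 0.294 RPKM in MDA-MB-231, a level 103-fold higher (95% interval 68 to 165). F11R, the junctional adhesion molecule JAM-A, had 84 and 97.8 RPKM in HCC1937, against 9.83 and 7.0 RPKM in MDA-MB-231. CLDN1, a barrier-forming claudin, had 34.6 and 23.9 RPKM in HCC1937, against 4.24 and 3.21 RPKM in MDA-MB-231. Claudins did not share a direction. CLDN4 was called lower, with 29.9 and 40.7 RPKM in HCC1937, against 63.9 and 44.8 RPKM in MDA-MB-231, but the call was lost in the siLARP7 pair and where the control libraries were rescaled to a median ratio of 1. CLDN12 had 6.55 and 6.2 RPKM in HCC1937, against 15.8 and 8.45 RPKM in MDA-MB-231, with its call lost in the siLARP7 pair. PARD6B, a polarity adaptor, was lower in both pairs, with 2.14 and 1.55 RPKM in HCC1937, against 11.4 and 8.09 RPKM in MDA-MB-231. CLDN7 had 74 and 76.9 RPKM in HCC1937, against 39.2 and 38 RPKM in MDA-MB-231, and was not called.

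The desmosome, a spot junction anchored to keratin, had members on both sides. Of 10 genes tested, 5 were higher and 1 lower. The plakophilins, plaque proteins of the desmosome, were all higher: PKP1 had 5.96 and 6.16 RPKM in HCC1937, against 0 and 0 RPKM in MDA-MB-231. PKP3 had 24 and 28.5 RPKM in HCC1937, against 3.96 and 5.43 RPKM in MDA-MB-231. PKP2 had 10.1 and 7.56 RPKM in HCC1937, against 3.58 and 3.2 RPKM in MDA-MB-231. DSG2, a desmosomal cadherin, was lower at 9.58 and 6.6 RPKM in HCC1937, against 43.8 and 23.9 RPKM in MDA-MB-231, a level 4.57-fold lower (95% interval 4.39 to 4.76). PPL and EVPL, the plaque proteins periplakin and envoplakin, were not called, with log2 ratios of 0.096 and -0.51.

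Keratins, the filaments of epithelium, were higher in 15 of the 17 genes tested and lower in 1, beside 14.0% and 21.4% over all genes, with a median log2 ratio of 2.15 (1.64 to 4.31 over the alternative settings, the highest with a pseudocount of 0.1); 10 entered through HCC1937 only. KRT16, an inducible keratin of basal and wounded epithelium, had 248 and 409 RPKM in HCC1937, against 0 and 0.0909 RPKM in MDA-MB-231. KRT17, its close relative, had 179 and 223 RPKM in HCC1937, against 0.0477 and 0.155 RPKM in MDA-MB-231, from 27680 reads in HCC1937 and 7 in MDA-MB-231. KRT81, a hair keratin, had 225 and 221 RPKM in HCC1937, against 8.79 and 3.96 RPKM in MDA-MB-231. The single lower keratin was KRT19, common in luminal epithelium, with 4.29 and 6.31 RPKM in HCC1937, against 97.5 and 107 RPKM in MDA-MB-231, a level 22.7-fold lower (95% interval 20.8 to 24.9). KRT80 was not called, at 19.2 and 13.8 RPKM in HCC1937, against 37 and 44.3 RPKM in MDA-MB-231.

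Epithelial transcription and splicing factors were higher in 13 of 17 genes tested and lower in none, with 10 entering through HCC1937 only. ESRP1, which sets the epithelial splicing pattern, had 41 and 32.3 RPKM in HCC1937, against 0 and 0.0115 RPKM in MDA-MB-231, which is at least 3305-fold higher. ELF3, an epithelial ETS factor, had 28 and 35.5 RPKM in HCC1937, against 3.5 and 4.02 RPKM in MDA-MB-231, a level 8.01-fold higher (95% interval 7.55 to 8.5). Not every factor was called: EHF, a related ETS factor, had 13.7 and 10.8 RPKM in HCC1937, against 13.4 and 12.2 RPKM in MDA-MB-231. TFAP2C, which encodes AP-2 gamma, had 5.22 and 3.66 RPKM in HCC1937, against 5.2 and 4.86 RPKM in MDA-MB-231. Values of these last 2 genes interleave across the 4 libraries of the lines.

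Of 12 repressors and inducers of epithelial-mesenchymal transition, 6 were tested, with 3 higher and 2 lower; 3 entered through HCC1937 only and 1 through MDA-MB-231 only. ZEB1, a repressor of CDH1, had 0.213 and 0.129 RPKM in HCC1937, against 3.78 and 3.67 RPKM in MDA-MB-231, a level 17.7-fold lower (95% interval 14.4 to 22.2). SNAI2, which encodes SLUG, had 1.48 and 1.08 RPKM in HCC1937, against 7.12 and 6.14 RPKM in MDA-MB-231, a level 4.8-fold lower (95% interval 4.19 to 5.53). Opposite to these, SNAI1 had 3.5 and 5.61 RPKM in HCC1937, against 0.61 and 1.07 RPKM in MDA-MB-231. FOXC2 had 1.2 and 2.08 RPKM in HCC1937, against 0.012 and 0.189 RPKM in MDA-MB-231, with only 2 reads behind the MDA-MB-231 control value. TCF3, the E-protein E2A, had 33.4 and 41.8 RPKM in HCC1937, against 13 and 18.6 RPKM in MDA-MB-231. The repressors of this list therefore did not share a direction, and ZEB1 and SNAI2 were the members higher in MDA-MB-231.

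ZEB and SNAIL factors bind the E-box CAGGTG, which reads CACCTG on the other strand. The promoters of CRB3 and RAB25 are shown because both genes were near 0 in MDA-MB-231 and both windows hold this motif more than once. Each window runs from 250 bases before to 50 after the start in RefSeq on GRCh38.p14, and the motif on either strand is in capitals. The CRB3 window, chr19:6464021-6464320 on the plus strand, held 5 matches, and the RAB25 window, chr1:156060910-156061209 on the plus strand, held 2.
CRB3: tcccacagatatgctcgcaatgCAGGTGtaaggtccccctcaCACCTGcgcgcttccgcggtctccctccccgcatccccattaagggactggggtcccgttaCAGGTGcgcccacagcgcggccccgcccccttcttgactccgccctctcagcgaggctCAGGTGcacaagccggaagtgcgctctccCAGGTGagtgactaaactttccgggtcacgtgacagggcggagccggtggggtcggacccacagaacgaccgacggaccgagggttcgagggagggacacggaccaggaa
RAB25: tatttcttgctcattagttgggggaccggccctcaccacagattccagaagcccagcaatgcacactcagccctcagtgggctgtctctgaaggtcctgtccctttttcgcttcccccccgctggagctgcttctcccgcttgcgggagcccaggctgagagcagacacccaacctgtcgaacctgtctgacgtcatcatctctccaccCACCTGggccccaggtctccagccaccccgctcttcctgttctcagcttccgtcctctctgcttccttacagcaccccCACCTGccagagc

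Among 35116 RefSeq promoter windows of that length, 20.6% held the motif at least once, 3.49% at least 2 times and 0.094% at least 5 times. A match of letters is a description and no measurement of binding, and the 2 windows were picked after the values were seen.

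Mesenchymal structure and matrix genes were the mirror of the adhesion list. Of 38 tested, 28 were lower in HCC1937 and 4 higher, with a median log2 ratio of -2.15 (-1.89 in the siLARP7 pair); 10 entered through MDA-MB-231 only and 2 through HCC1937 only. VIM, which encodes vimentin, had 1.69 and 1.56 RPKM in HCC1937, against 149 and 199 RPKM in MDA-MB-231, a level 87.9-fold lower (95% interval 80 to 96.9). THBS1, the matrix protein thrombospondin, had 2.26 and 1.84 RPKM in HCC1937, against 201 and 167 RPKM in MDA-MB-231, a level 89.2-fold lower (95% interval 83.9 to 95). S100A4, a calcium-binding protein known from motile cells, had 17.4 and 24.6 RPKM in HCC1937, against 466 and 369 RPKM in MDA-MB-231. Among the 4 exceptions, ANPEP, a surface aminopeptidase, had 22.2 and 32.7 RPKM in HCC1937, against 0.00828 and 0 RPKM in MDA-MB-231. TAGLN, the actin-binding protein transgelin, had 11 and 11.1 RPKM in HCC1937, against 1.07 and 1.36 RPKM in MDA-MB-231. LAMA4, a laminin chain, had 2.92 and 3.75 RPKM in HCC1937, against 0.448 and 0.418 RPKM in MDA-MB-231. PTRF, a coat protein of caveolae, and MSN, the membrane linker moesin, were not called. PTRF had 114 and 127 RPKM in HCC1937, against 108 and 137 RPKM in MDA-MB-231. MSN had 39 and 36.6 RPKM in HCC1937, against 49.2 and 53 RPKM in MDA-MB-231.

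**Figure D2:**
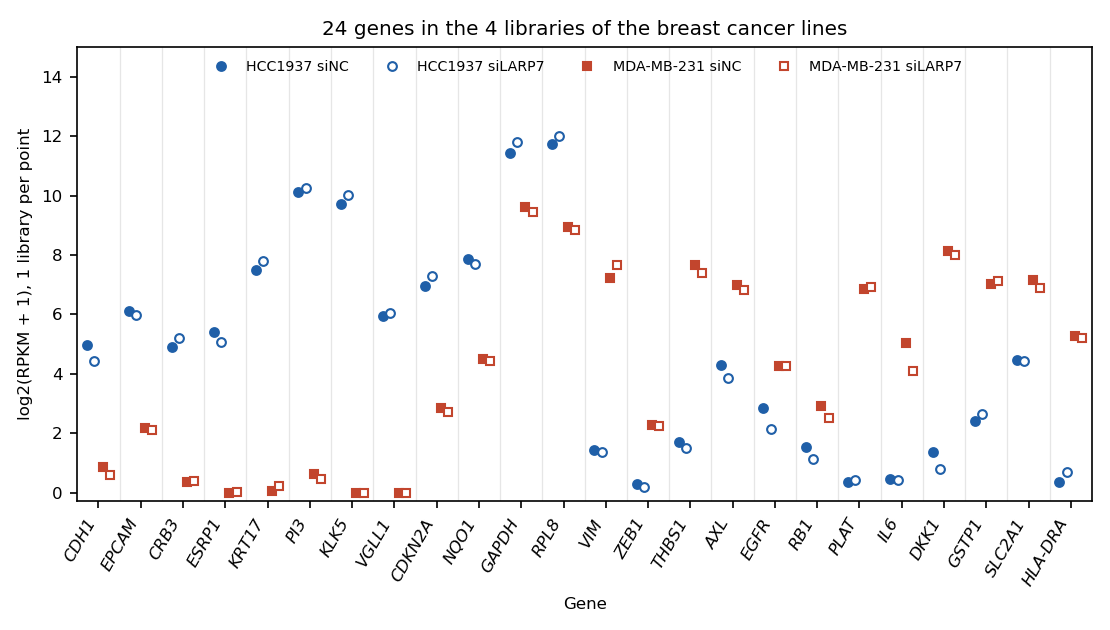
Level as log2(RPKM + 1) of 24 genes in the 4 libraries, with HCC1937 as circles left of MDA-MB-231 as squares, filled for siNC and open for siLARP7, 1 library per point. The 24 genes were picked from the called genes named in the text. In each of them both HCC1937 points lie on the same side of both MDA-MB-231 points, which follows largely from that choice. Over all genes tested, both HCC1937 libraries lay above both MDA-MB-231 libraries in 32.7% and below both in 49.7%. KLK5 and VGLL1 are at 0 in MDA-MB-231.

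Basal and squamous genes, a programme of stratified and basal mammary epithelium, were higher in 16 of 26 genes tested and lower in 4, beside 14.0% and 21.4% over all genes. The median log2 ratio was 1.75, and 11 entered through HCC1937 only. PI3, S100A9 and SLPI led the list. The 4 lower ones held genes usually counted as basal as well: FOXC1, a forkhead factor, had 2.83 and 5.67 RPKM in HCC1937, against 16.6 and 12.9 RPKM in MDA-MB-231. DST, the hemidesmosome linker dystonin, had 1.18 and 0.70 RPKM in HCC1937, against 6.65 and 6.7 RPKM in MDA-MB-231. ITGA6, the integrin alpha chain of the hemidesmosome, had 19.9 and 17.4 RPKM in HCC1937, against 49.6 and 33.3 RPKM in MDA-MB-231, with the call lost in the siLARP7 pair. LAMB3, a laminin chain of the basement membrane, and S100A2 were not called. LAMB3 had 77.3 and 93.7 RPKM in HCC1937, against 68 and 46.9 RPKM in MDA-MB-231. S100A2 had 22.4 and 23.7 RPKM in HCC1937, against 19.1 and 15.4 RPKM in MDA-MB-231.

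Kallikrein proteases gave the longest run of neighbouring genes higher in HCC1937. Of the 11 kallikrein genes listed, 7 were tested and all 7 were higher, each entering through HCC1937 only. They lie side by side on chromosome 19, in a run of 10 expressed neighbours that also holds CTD-2568A17.1, C19orf48 and CTU1. KLK6 had 167 and 230.1 RPKM in HCC1937, against 0 and 0 RPKM in MDA-MB-231. KLK10 had 86.6 and 115 RPKM in HCC1937, against 0.00523 and 0 RPKM in MDA-MB-231, the MDA-MB-231 control value of KLK10 resting on 1 read. KLK8 had 27.1 and 32.5 RPKM in HCC1937, against 0 and 0 RPKM in MDA-MB-231. KLK9 had 19.3 and 26.1 RPKM in HCC1937, against 0 and 0 RPKM in MDA-MB-231. KLK7 had 8.53 and 12.2 RPKM in HCC1937, against 0 and 0 RPKM in MDA-MB-231. KLK11 had 1.4 and 2.09 RPKM in HCC1937, against 0 and 0 RPKM in MDA-MB-231. Levels thus spanned from 1.4 RPKM for KLK11 to 839 RPKM for KLK5 within the run, while no kallikrein of the run passed 0.00523 RPKM in MDA-MB-231. At the ends of the run, CTD-2568A17.1 had 1.04 and 1.76 RPKM in HCC1937, against 0 and 0 RPKM in MDA-MB-231, a call lost with the trend on GC, length and level removed. CTU1, a tRNA thiolation enzyme, had 14.8 and 22 RPKM in HCC1937, against 2.91 and 4.98 RPKM in MDA-MB-231. C19orf48, next to CTD-2568A17.1, had 60.4 and 56.3 RPKM in HCC1937, against 18.1 and 23.6 RPKM in MDA-MB-231, so 2 of these 3 other genes were read in both lines. Overlapping transcripts on the other strand cannot be told apart here, since strand was not given.

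The epidermal differentiation cluster on chromosome 1 gave another such run, of 8 genes. S100A8, which pairs with S100A9 in calprotectin, had 45.4 and 55.6 RPKM in HCC1937, against 0 and 0 RPKM in MDA-MB-231. S100A7, the antimicrobial protein psoriasin, had 36.8 and 40.7 RPKM in HCC1937, against 0 and 0 RPKM in MDA-MB-231. The small proline-rich genes, which crosslink the cornified envelope, stood between 2.12 RPKM for SPRR2A and 6.21 RPKM for SPRR1B in the HCC1937 siNC library, with SPRR1A, SPRR2D and SPRR2E in between. All 8 genes of this run, S100A9 included, were at 0 in both MDA-MB-231 libraries. The SPRR2 genes are alike in sequence, so the split of reads among them is uncertain. On chromosome 2, 9 neighbouring UGT1A genes, glucuronidation enzymes, formed a run; they share most of their exons, so this is close to 1 measurement. UGT1A1 had 1.77 and 1.31 RPKM in HCC1937, against 0.0505 and 0.0164 RPKM in MDA-MB-231. UGT1A3 had 5.19 and 4.02 RPKM in HCC1937, against 0.111 and 0.0555 RPKM in MDA-MB-231. On chromosome 12 a run of 8 held keratin genes alone, and on chromosome 17 a run of 8 held the 4 keratins KRT9, KRT14, KRT16 and KRT17 with EIF1, GAST, HAP1 and JUP. These were part of 22 runs of at least 5 genes higher in HCC1937 and 30 lower.

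Receptor tyrosine kinases differed in both directions, with 7 of 25 tested higher and 10 lower, beside 14.0% and 21.4% over all genes; 6 entered through MDA-MB-231 only and 1 through HCC1937 only. FGFR3, a receptor for fibroblast growth factors, had 49.5 and 44.5 RPKM in HCC1937, against 2.45 and 2.49 RPKM in MDA-MB-231, a level 20.2-fold higher (95% interval 18.6 to 21.9). PTK7, a pseudokinase receptor of planar polarity, had 16.6 and 18.1 RPKM in HCC1937, against 3.83 and 3.42 RPKM in MDA-MB-231. EPHA1, an ephrin receptor, had 4.2 and 3.42 RPKM in HCC1937, against 0.852 and 0.951 RPKM in MDA-MB-231. AXL, the GAS6 receptor, had 18.7 and 13.6 RPKM in HCC1937, against 125 and 113 RPKM in MDA-MB-231, a level 6.7-fold lower (95% interval 6.5 to 6.91). EGFR, the epidermal growth factor receptor, had 6.16 and 3.46 RPKM in HCC1937, against 18.2 and 18.1 RPKM in MDA-MB-231, a level 2.96-fold lower (95% interval 2.85 to 3.07). PDGFRB, a platelet-derived growth factor receptor, had 0.0199 and 0.0221 RPKM in HCC1937, against 3.99 and 2.97 RPKM in MDA-MB-231, from 7 reads in HCC1937 and 1412 in MDA-MB-231. EPHB2 was lower at 3.52 and 3.23 RPKM in HCC1937, against 21.8 and 19.7 RPKM in MDA-MB-231. EPHA2, the most abundant uncalled kinase, had 69.5 and 73.1 RPKM in HCC1937, against 62.1 and 46.8 RPKM in MDA-MB-231. EPHB4 had 17.3 and 19.7 RPKM in HCC1937, against 11.7 and 10.1 RPKM in MDA-MB-231.

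Ligands for these receptors were as mixed, with 4 of 14 higher and 6 lower; 3 entered through MDA-MB-231 only and 1 through HCC1937 only. FGF2, a fibroblast growth factor, had 9.7 and 9.21 RPKM in HCC1937, against 1.26 and 1.14 RPKM in MDA-MB-231. PDGFB had 9.43 and 8.9 RPKM in HCC1937, against 1.77 and 2.03 RPKM in MDA-MB-231. FGFBP1, which releases fibroblast growth factors from matrix, had 2.06 and 1.61 RPKM in HCC1937, against 0.178 and 0.0828 RPKM in MDA-MB-231. PDGFC had 0.787 and 0.668 RPKM in HCC1937, against 16.6 and 12.1 RPKM in MDA-MB-231, a level 21.2-fold lower (95% interval 18.5 to 24.4). AREG, the EGFR ligand amphiregulin, had 10.4 and 11.3 RPKM in HCC1937, against 70.4 and 38.1 RPKM in MDA-MB-231. VEGFA, the endothelial growth factor, had 21.3 and 27.7 RPKM in HCC1937, against 74.8 and 73.2 RPKM in MDA-MB-231. HBEGF and TGFA, EGFR ligands as well, were not called, with log2 ratios of -0.15 and 0.35.

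Downstream of the receptors, genes of RAS, RAF, MEK and ERK were mostly alike, with 13 of 16 not called. MAPK3, the kinase ERK1, had 44.2 and 58.9 RPKM in HCC1937, against 11 and 11.4 RPKM in MDA-MB-231. MAP2K1, the kinase MEK1, had 52.3 and 59.8 RPKM in HCC1937, against 17 and 14 RPKM in MDA-MB-231. Both were higher. ARAF was lower, at 5.21 and 7.42 RPKM in HCC1937, against 15.1 and 16.1 RPKM in MDA-MB-231. Feedback targets of the pathway were lower in 8 of 20 and higher in 2, 3 entering through MDA-MB-231 only, with a median log2 ratio of -0.80 that shrank to -0.23 among genes at 5 RPKM or more. DUSP6, a phosphatase of ERK, had 1.97 and 1.53 RPKM in HCC1937, against 13.8 and 12.9 RPKM in MDA-MB-231, a level 7.0-fold lower (95% interval 6.34 to 7.74). DUSP4, another such phosphatase, had 2.55 and 2.36 RPKM in HCC1937, against 18.1 and 15.9 RPKM in MDA-MB-231. IER3 had 105 and 123 RPKM in HCC1937, against 408 and 384 RPKM in MDA-MB-231. ETV5, an ETS factor of the same list, went the other way with 18 and 14.3 RPKM in HCC1937, against 6.05 and 5.05 RPKM in MDA-MB-231. So did CCND1, which encodes cyclin D1, with 116 and 78.3 RPKM in HCC1937, against 52.6 and 59.3 RPKM in MDA-MB-231, a call lost in the siLARP7 pair and with the trend on GC, length and level removed. FOSL1, an AP-1 subunit, was not called, with a log2 ratio of 0.72.

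In the TGF-beta family, 14 of 23 genes tested were lower and 2 higher, beside 21.4% and 14.0% over all genes. Of these, 7 entered through MDA-MB-231 only and so had to be lower, and 1 through HCC1937 only. The median log2 ratio was -1.06 (-1.65 to -0.93 over the alternative settings, the lowest with a pseudocount of 0.1). BMP4, a bone morphogenetic protein, had 1.21 and 1.05 RPKM in HCC1937, against 91 and 83.4 RPKM in MDA-MB-231, a level 75.2-fold lower (95% interval 65 to 87.4). TGFB2 had 0.256 and 0.161 RPKM in HCC1937, against 45.4 and 40.9 RPKM in MDA-MB-231. NOG, the BMP antagonist noggin, had 1.16 and 0.929 RPKM in HCC1937, against 83.5 and 87.5 RPKM in MDA-MB-231. GDF15, a stress-induced ligand, was the reverse, with 94.2 and 137 RPKM in HCC1937, against 7.07 and 5.82 RPKM in MDA-MB-231. INHBB, an activin chain, had 5.38 and 3.41 RPKM in HCC1937, against 0.573 and 0.878 RPKM in MDA-MB-231. SMAD3, the signal transducer, and BAMBI, a decoy receptor, were not called, with log2 ratios of -0.94 and 0.81. In the siLARP7 pair their log2 ratios were -1.02 and 2.16, at least 1 in size.

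The Wnt list, with 4 of 25 higher and 7 lower, lay nearer to the shares over all genes; 5 entered through HCC1937 only and 4 through MDA-MB-231 only. DKK1 was its lowest member. The receptors FZD7 and FZD1 were lower. FZD7 had 4.2 and 5.61 RPKM in HCC1937, against 30.4 and 23.6 RPKM in MDA-MB-231. FZD1 had 0.85 and 0.86 RPKM in HCC1937, against 6.75 and 5.2 RPKM in MDA-MB-231. SFRP1, a secreted Wnt-binding protein, had 7.94 and 9.71 RPKM in HCC1937, against 0.00848 and 0 RPKM in MDA-MB-231, from 1866 reads in HCC1937 and 2 in MDA-MB-231. WNT7A, a ligand, had 2.75 and 2.03 RPKM in HCC1937, against 0 and 0 RPKM in MDA-MB-231. NKD1, a feedback inhibitor, had 1.68 and 1.42 RPKM in HCC1937, against 0.123 and 0.0992 RPKM in MDA-MB-231. In the Notch list, 3 of 13 genes were higher and 4 lower. The receptor NOTCH3 had 23.2 and 30.5 RPKM in HCC1937, against 3.1 and 1.7 RPKM in MDA-MB-231. Its target HES1 had 16.8 and 21.2 RPKM in HCC1937, against 5.23 and 6.89 RPKM in MDA-MB-231. The feedback protein NRARP had 7.73 and 10.8 RPKM in HCC1937, against 2.31 and 2.86 RPKM in MDA-MB-231. HEY1, also a target, had 1.06 and 0.837 RPKM in HCC1937, against 9.06 and 6.69 RPKM in MDA-MB-231. The glycosyltransferase LFNG and the ligand DLL1 were lower as well, at log2 ratios of -1.43 and -1.39.

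Integrins, the receptors for matrix, were lower in 7 of 13 genes tested and higher in 1, beside 21.4% and 14.0% over all genes. Of the 13, 3 entered through MDA-MB-231 only and 1 through HCC1937 only. In the siLARP7 pair 3 of the 7 kept their call. ITGA5, a fibronectin receptor chain, had 5.23 and 4.17 RPKM in HCC1937, against 27.7 and 23.2 RPKM in MDA-MB-231, a level 5.29-fold lower (95% interval 5.04 to 5.55). ITGA1, a collagen receptor chain, had 0.0895 and 0.107 RPKM in HCC1937, against 4.26 and 2.57 RPKM in MDA-MB-231. ITGB3, a vitronectin receptor chain, had 0.136 and 0.145 RPKM in HCC1937, against 3.12 and 1.8 RPKM in MDA-MB-231. ITGB6, an epithelial integrin chain, was the one higher member, at 3.03 and 2.93 RPKM in HCC1937, against 0.0889 and 0.106 RPKM in MDA-MB-231. ITGB1, the common beta chain, was abundant and not called, at 183 and 153 RPKM in HCC1937, against 229 and 181 RPKM in MDA-MB-231.

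Matrix proteases and their inhibitors were lower in 11 of 18 and higher in 2, beside 21.4% and 14.0% over all genes. Of the 18, 3 entered through MDA-MB-231 only and 2 through HCC1937 only. PLAT, tissue plasminogen activator, had 0.284 and 0.343 RPKM in HCC1937, against 114 and 119 RPKM in MDA-MB-231, a level 402-fold lower (95% interval 327 to 497). PLAU, urokinase, had 11.3 and 12.5 RPKM in HCC1937, against 118 and 72.6 RPKM in MDA-MB-231. MMP14, a membrane-bound collagenase, had 5.41 and 7.47 RPKM in HCC1937, against 106 and 78.2 RPKM in MDA-MB-231. MMP28, an epithelial metalloprotease, had 7.14 and 12.4 RPKM in HCC1937, against 0.0164 and 0.0609 RPKM in MDA-MB-231. MMP15 had 20.9 and 27.3 RPKM in HCC1937, against 9.26 and 6.25 RPKM in MDA-MB-231, a call lost with the trend on GC, length and level removed. Both were higher in the siNC pair. TIMP3, an inhibitor of these enzymes, was not called, at 65.3 and 57.6 RPKM in HCC1937, against 79.8 and 66.7 RPKM in MDA-MB-231.

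Of 21 tumour suppressor genes tested, 6 were higher in HCC1937 and 3 lower, beside 14.0% and 21.4% over all genes. Of the 21, 2 entered through HCC1937 only and 2 through MDA-MB-231 only. RB1, the retinoblastoma protein, was among the lower, at 1.88 and 1.18 RPKM in HCC1937, against 6.46 and 4.64 RPKM in MDA-MB-231. CDKN2A, the locus of the cell cycle inhibitors p16 and p14ARF, had 124 and 156 RPKM in HCC1937, against 6.21 and 5.6 RPKM in MDA-MB-231, a level 20-fold higher (95% interval 18.9 to 21.2). CDKN2B, which encodes p15, had 14.5 and 14.4 RPKM in HCC1937, against 0.368 and 0.263 RPKM in MDA-MB-231. MTAP, a purine salvage enzyme beside them, had 6.21 and 3.25 RPKM in HCC1937, against 0.787 and 0.647 RPKM in MDA-MB-231. BAP1 and VHL were not called and nearly equal between the control libraries, with log2 ratios of -0.0035 and 0.0048. In the PI3 kinase list 15 of 19 genes were not called; 4 entered through MDA-MB-231 only and 1 through HCC1937 only. The adaptor IRS1 was lower, at 0.348 and 0.326 RPKM in HCC1937, against 8.31 and 8.69 RPKM in MDA-MB-231. RPTOR of the mTOR complex was lower too, at 1.7 and 1.42 RPKM in HCC1937, against 4.65 and 5.58 RPKM in MDA-MB-231, a call lost with the trend on GC, length and level removed. The regulatory subunit PIK3R3 was higher, at 3.66 and 1.75 RPKM in HCC1937, against 0.783 and 0.567 RPKM in MDA-MB-231, a call lost in the siLARP7 pair.

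Around CDKN2A on chromosome 9 the difference covered neighbouring genes. MTAP, CDKN2A and CDKN2B were all higher in HCC1937, and in MDA-MB-231 MTAP, CDKN2A and CDKN2B held 570, 1333 and 74 reads, so none of them was at 0. Next to CDKN2B, DMRTA1 had 0.109 and 0.0851 RPKM in HCC1937, against 0 and 0.00673 RPKM in MDA-MB-231, too low to enter. Beyond DMRTA1, ELAVL2, an RNA-binding protein, had 1.07 and 1.59 RPKM in HCC1937, against 0.228 and 0.135 RPKM in MDA-MB-231, a level 4.72-fold higher (95% interval 3.54 to 6.37) that was not called on the RPKM + 1 scale. Beyond MTAP, KLHL9, an adaptor of a ubiquitin ligase, had 3.71 and 1.82 RPKM in HCC1937, against 1.57 and 0.975 RPKM in MDA-MB-231, a level 2.36-fold higher (95% interval 2.11 to 2.65), also not called. Farther out, TUSC1 had 6.66 and 6.12 RPKM in HCC1937, against 5.8 and 4.67 RPKM in MDA-MB-231. CAAP1 had 5.43 and 2.58 RPKM in HCC1937, against 6.62 and 4.27 RPKM in MDA-MB-231. Neither TUSC1 nor CAAP1 was called, and all flanking genes named here were picked with their values in view.

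**Figure D3:**
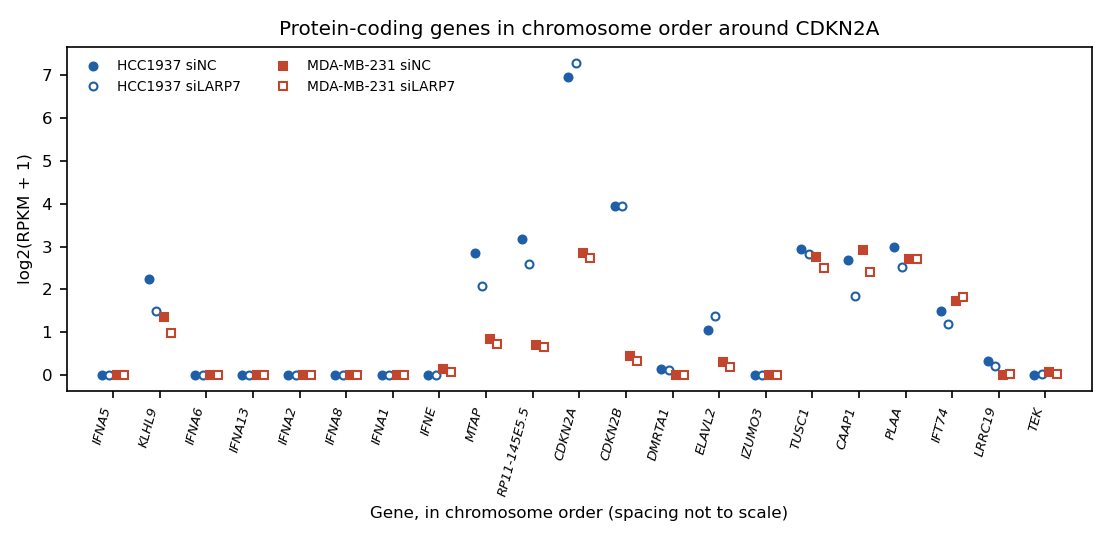
Level as log2(RPKM + 1) of the 10 protein-coding genes on each side of CDKN2A in chromosome order, with HCC1937 as circles left of MDA-MB-231 as squares, filled for siNC and open for siLARP7. At CDKN2A the HCC1937 points stand near 7 and the MDA-MB-231 points near 3, and MTAP and CDKN2B are higher in HCC1937 as well.

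The longest run of all lay on chromosome 18, where 20 expressed neighbours from DSG2 to EPG5 were lower, with a median log2 ratio of -1.73 (-1.71 in the siLARP7 pair, with 18 of 20 called there too). ELP2 and INO80C, inside the run, lost their calls with the trend on GC, length and level removed, so the run is broken in that setting. GALNT1, a glycosyltransferase, had 3.34 and 2.84 RPKM in HCC1937, against 21.5 and 14.5 RPKM in MDA-MB-231, a level 6.42-fold lower (95% interval 5.97 to 6.91). ZNF24, a zinc finger factor, had 1.75 and 0.94 RPKM in HCC1937, against 11.4 and 9.06 RPKM in MDA-MB-231. RPRD1A, which binds the RNA polymerase tail, had 1.46 and 1.04 RPKM in HCC1937, against 9.81 and 7.91 RPKM in MDA-MB-231. RNF138, a ubiquitin ligase, had 2.44 and 1.74 RPKM in HCC1937, against 9.92 and 6.29 RPKM in MDA-MB-231. SLC39A6, the zinc transporter LIV-1, had 5.37 and 4.4 RPKM in HCC1937, against 31 and 18.5 RPKM in MDA-MB-231. FHOD3, a formin, was near 0 in HCC1937, at 0.0178 and 0.0446 RPKM in HCC1937, against 5.42 and 5.47 RPKM in MDA-MB-231. The smallest differences of the run were ELP2, of the elongator complex, at a log2 ratio of -1.20 and INO80C at -1.21. The remaining members, among them B4GALT6, TRAPPC8, MAPRE2, C18orf21, MOCOS, TPGS2, PIK3C3 and EPG5, ranged from -2.07 for ZSCAN30 to -1.31 for ZNF397. A further run of 10 on chromosome 6, from RP11-514O12.4 through RNASET2, FGFR1OP, MLLT4, WDR27, C6orf120, PHF10, ERMARD and DLL1 to FAM120B, had a median log2 ratio of -1.38; PHF10, a chromatin remodelling subunit, led it with 1.55 and 1.05 RPKM in HCC1937, against 16.7 and 14.7 RPKM in MDA-MB-231. Of this run, FGFR1OP and MLLT4 lost their calls with the trend on GC, length and level removed.

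Medians also differed by chromosome. The 157 protein-coding genes of chromosome 18 lay at a median log2 ratio of -0.84, with 43.9% lower, those of chromosome 10 -0.68 over 471, and those of chromosome X -0.62 over 403. Chromosomes 16 and 19 had the highest medians, 0.47 over 616 genes and 0.39 over 962, with 30% and 25.8% of genes higher. Over all protein-coding genes the median was -0.14. Across 12256 genes the log2 ratio had a Spearman correlation of 0.125 with GC content and -0.203 with length, given as a description since genes are not independent. With the trend on GC, length and level removed, a step added for chromosomes after seeing the data, the medians were -0.67 for chromosome 18, -0.60 for 10, -0.62 for X, 0.45 for 16 and 0.24 for 19.

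**Figure D4:**
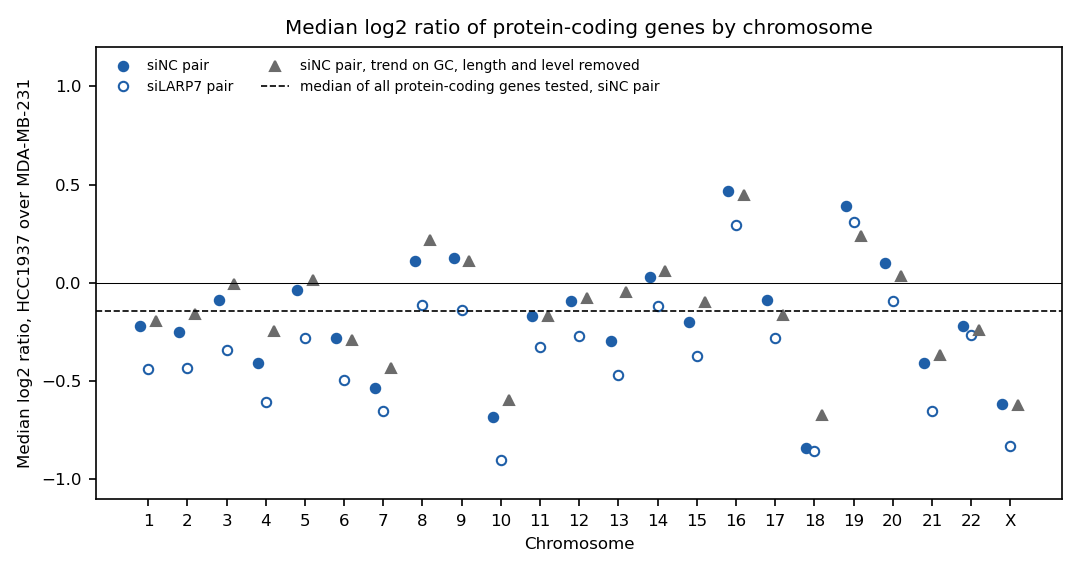
Median log2 ratio of RPKM + 1, HCC1937 over MDA-MB-231, of the protein-coding genes of each chromosome, for the siNC pair (filled circles), the siLARP7 pair (open circles) and the siNC pair with the trend on GC, length and level removed (triangles). Chromosomes 18, 10 and X are lowest and 16 and 19 highest by each of these measures.

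BRCA1 and its partners in homologous recombination were lower in 4 of 30 genes tested and higher in none, beside 21.4% and 14.0% over all genes. BRCA1 itself, a ubiquitin ligase subunit of DNA repair, had 3.29 and 0.785 RPKM in HCC1937, against 4.91 and 5.08 RPKM in MDA-MB-231, and was not called in the siNC pair, its siLARP7 value in HCC1937 being the lowest of the 4. XRCC2, a recombination protein, had 1.67 and 0.513 RPKM in HCC1937, against 11.3 and 15.2 RPKM in MDA-MB-231, a level 6.79-fold lower (95% interval 6.11 to 7.56). FANCI, of the Fanconi complex, had 1.66 and 1.06 RPKM in HCC1937, against 11.1 and 11.2 RPKM in MDA-MB-231. MRE11A, a nuclease subunit, had 1.93 and 1.44 RPKM in HCC1937, against 7.82 and 7.28 RPKM in MDA-MB-231. FANCG and FANCL were not called, with log2 ratios of -0.15 and 0.10. Among 11 genes of the 7SK particle and the elongation kinase it restrains, 3 were higher and none lower. CCNK, a cyclin, had 10.5 and 8.6 RPKM in HCC1937, against 4.67 and 5.0 RPKM in MDA-MB-231. The 7SK capping enzyme MEPCE had 16 and 11.2 RPKM in HCC1937, against 7.42 and 10.5 RPKM in MDA-MB-231. The calls on CCNK and MEPCE were lost in the siLARP7 pair, and that on MEPCE also with the trend on GC, length and level removed. The 7SK RNA gene RN7SK had 6.61 and 5.25 RPKM in HCC1937, against 13.5 and 8.16 RPKM in MDA-MB-231, from 108 reads in HCC1937 and 222 in MDA-MB-231 in the control libraries, and was not called. HEXIM1, an inhibitor of the kinase, and its catalytic subunit CDK9 were not called, with log2 ratios of -0.68 and 0.52. In the siLARP7 pair their log2 ratios were -1.28 and 0.28.

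Of 32 G2/M genes, 6 were higher and 2 lower, and of 26 replication genes, 3 were higher and 5 lower, beside 14.0% and 21.4% over all genes. HMMR, a spindle protein, had 21 and 7.84 RPKM in HCC1937, against 3.34 and 3.41 RPKM in MDA-MB-231. PTTG1, the securin, had 168 and 139.9 RPKM in HCC1937, against 46.5 and 53.6 RPKM in MDA-MB-231. CCNB2, a mitotic cyclin, had 49.1 and 36.1 RPKM in HCC1937, against 20.3 and 7.2 RPKM in MDA-MB-231. CENPF, a kinetochore protein, had 7.47 and 2.88 RPKM in HCC1937, against 23 and 20.5 RPKM in MDA-MB-231. KIF11, a spindle motor, had 6.22 and 2.48 RPKM in HCC1937, against 19.4 and 17.8 RPKM in MDA-MB-231. CENPF and KIF11 were both lower. CDT1, a licensing factor, had 39.4 and 52 RPKM in HCC1937, against 8.5 and 11.6 RPKM in MDA-MB-231. PCNA, the sliding clamp, had 261 and 232 RPKM in HCC1937, against 107 and 84.4 RPKM in MDA-MB-231. MCM2, a helicase subunit, had 38.2 and 39.6 RPKM in HCC1937, against 17 and 16 RPKM in MDA-MB-231. The calls on CCNB2, PCNA and MCM2 were lost with the trend on GC, length and level removed. POLA1, a DNA polymerase subunit, had 0.992 and 0.633 RPKM in HCC1937, against 5.03 and 5.71 RPKM in MDA-MB-231. Several mitotic genes, HMMR, CENPF and KIF11 among them, were lower in the siLARP7 than in the siNC library of HCC1937. Cyclins, kinases and inhibitors of G1 were higher in 6 of 13 and lower in none, beside the same 14.0% and 21.4%. In the siLARP7 pair 3 of the 6 kept their call. The median log2 ratio of this list, 0.99, was 0.40 with the trend on GC, length and level removed. Besides the CDKN2 genes, CDKN1A, which encodes p21, had 24.9 and 25.9 RPKM in HCC1937, against 9.31 and 15.3 RPKM in MDA-MB-231, a call lost in the siLARP7 pair.

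Cytokines and chemokines were lower in 11 of 21 genes tested and higher in 4, beside 21.4% and 14.0% over all genes, with 7 entering through MDA-MB-231 only. IL6, an inflammatory cytokine, had 0.381 and 0.342 RPKM in HCC1937, against 32.2 and 16 RPKM in MDA-MB-231, a level 84.3-fold lower (95% interval 61.4 to 119). IL8, a neutrophil chemokine, had 7.77 and 8.39 RPKM in HCC1937, against 219.6 and 152 RPKM in MDA-MB-231. CSF2, which encodes GM-CSF, had 1.79 and 3.18 RPKM in HCC1937, against 72.2 and 62.5 RPKM in MDA-MB-231. CXCL16, a membrane-bound chemokine, was higher, at 62.8 and 80 RPKM in HCC1937, against 7.24 and 7.63 RPKM in MDA-MB-231. CCL5 was higher too, at 7.54 and 10.9 RPKM in HCC1937, against 1.4 and 0.98 RPKM in MDA-MB-231. IL1B had 17.8 and 12.5 RPKM in HCC1937, against 7.4 and 7.15 RPKM in MDA-MB-231, a call lost in the siLARP7 pair and with the trend on GC, length and level removed. IL32 and IL1A were not called, with log2 ratios of -0.79 and 0.75. NF-kB genes, with 2 of 16 higher and 5 lower beside 14.0% and 21.4% over all genes, lay near those shares. The 2 higher genes were NFKBIB and TNFAIP3. NFKBIB had 26.3 and 28.3 RPKM in HCC1937, against 6.85 and 10.1 RPKM in MDA-MB-231. TNFAIP3 had 10.3 and 5.38 RPKM in HCC1937, against 4.43 and 4.71 RPKM in MDA-MB-231, a call lost in the siLARP7 pair. Among the lower, the apoptosis inhibitor BIRC3 had 7.51 and 3.46 RPKM in HCC1937, against 37.2 and 26.2 RPKM in MDA-MB-231. Its relative BIRC2 had 7.85 and 4.32 RPKM in HCC1937, against 22.6 and 23.2 RPKM in MDA-MB-231. The adhesion receptor ICAM1 had 20.6 and 18.9 RPKM in HCC1937, against 64.8 and 41.8 RPKM in MDA-MB-231. NFKBIA, the feedback inhibitor, was nearly equal, at 43.6 and 43.6 RPKM in HCC1937, against 43.4 and 43.5 RPKM in MDA-MB-231.

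MHC class II genes, usually confined to antigen-presenting cells, were lower in 6 of 9 genes tested and higher in none; 5 of the 9 entered through MDA-MB-231 only and so had to be lower. HLA-DRA had 0.285 and 0.633 RPKM in HCC1937, against 37.5 and 36.2 RPKM in MDA-MB-231. HLA-DPA1 had 0.0423 and 0.0859 RPKM in HCC1937, against 19.1 and 15.3 RPKM in MDA-MB-231. HLA-DPB1 had 0.00708 and 0.0276 RPKM in HCC1937, against 13.7 and 11.1 RPKM in MDA-MB-231. HLA-DRB1 and HLA-DQB1 were low in all 4 libraries and not called. MHC class I and its processing genes were instead higher in 6 of 17 and lower in 1. HLA-C had 233 and 301 RPKM in HCC1937, against 69.4 and 52 RPKM in MDA-MB-231. The immunoproteasome subunit PSMB10 had 32.5 and 37.1 RPKM in HCC1937, against 8.49 and 9.35 RPKM in MDA-MB-231. The trimming peptidase ERAP1 was lower, at 3.6 and 2.93 RPKM in HCC1937, against 12.3 and 9.52 RPKM in MDA-MB-231. B2M, the class I light chain, and the chaperone CALR were abundant and not called, with log2 ratios of 0.66 and 0.55. HLA genes are listed several times through alternative haplotypes and differ between people, so their reads may be split or lost, and their levels are uncertain.

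Interferon-stimulated genes were higher in 11 of 31 and lower in 5, beside 14.0% and 21.4% over all genes; 3 entered through each line only. The oligoadenylate synthetase family included higher members. OAS1 had 5.32 and 6.26 RPKM in HCC1937, against 0.0722 and 0.0336 RPKM in MDA-MB-231. OASL had 13.7 and 12.6 RPKM in HCC1937, against 1.15 and 1.83 RPKM in MDA-MB-231. IFI44 had 9.71 and 8.84 RPKM in HCC1937, against 2.12 and 2.36 RPKM in MDA-MB-231. The antiviral IFIT3 was lower, at 3.27 and 1.23 RPKM in HCC1937, against 17.6 and 17.2 RPKM in MDA-MB-231. The factor IRF7 was lower, at 0.501 and 0.519 RPKM in HCC1937, against 5.87 and 7.06 RPKM in MDA-MB-231. The RNA sensor DDX58 was lower, at 1.29 and 0.442 RPKM in HCC1937, against 4.87 and 4.1 RPKM in MDA-MB-231. BST2 and IFITM3, membrane restriction factors, were abundant in both lines and not called. BST2 had 284 and 341 RPKM in HCC1937, against 246 and 196 RPKM in MDA-MB-231. IFITM3 had 92.5 and 113 RPKM in HCC1937, against 115 and 122 RPKM in MDA-MB-231.

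YAP and TEAD genes were divided evenly, with 7 of 19 higher and 7 lower. VGLL1, a TEAD cofactor, had 60.7 and 65.3 RPKM in HCC1937, against 0 and 0 RPKM in MDA-MB-231, which is at least 1547-fold higher. TEAD4, a partner factor, had 12.8 and 11.9 RPKM in HCC1937, against 2.08 and 3.87 RPKM in MDA-MB-231. NF2, an upstream suppressor, had 7.79 and 6.27 RPKM in HCC1937, against 1.86 and 2.05 RPKM in MDA-MB-231. Among targets, CTGF had 4.28 and 4.37 RPKM in HCC1937, against 48.5 and 41.4 RPKM in MDA-MB-231, a level 11.3-fold lower (95% interval 10.3 to 12.4), beside ANKRD1 and AXL above. YAP1 itself and AJUBA were not called, with log2 ratios of -0.11 and -0.36.

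Hypoxia and glycolysis genes were lower in 12 of 25 and higher in 2, beside 21.4% and 14.0% over all genes. The 2 exceptions were enzymes of glycolysis. GAPDH, a dehydrogenase, had 2771 and 3592 RPKM in HCC1937, against 774 and 694 RPKM in MDA-MB-231, a level 3.58-fold higher (95% interval 3.56 to 3.6). ALDOA, an aldolase, had 786 and 1081 RPKM in HCC1937, against 114 and 119.8 RPKM in MDA-MB-231, a level 6.9-fold higher (95% interval 6.8 to 7.0). The glucose transporters SLC2A1 and SLC2A3 were lower. SLC2A1 had 21 and 20.3 RPKM in HCC1937, against 143 and 118 RPKM in MDA-MB-231. SLC2A3 had 0.148 and 0.17 RPKM in HCC1937, against 10.3 and 7.4 RPKM in MDA-MB-231. CA9, a carbonic anhydrase induced by hypoxia, had 0.619 and 0.793 RPKM in HCC1937, against 5.24 and 4.32 RPKM in MDA-MB-231. PKM and PGK1, later steps of glycolysis, were not called, with log2 ratios of -0.44 and -0.67. L-15 medium contains galactose in place of glucose, so these differences and the medium cannot be told apart. Cholesterol genes were lower in 8 of 21 and higher in 1, beside the same shares over all genes. In the siLARP7 pair 3 of the 8 were called. LSS was lower, at 3.99 and 3.98 RPKM in HCC1937, against 15.8 and 13.9 RPKM in MDA-MB-231. EBP was lower, at 14.1 and 13.1 RPKM in HCC1937, against 46.3 and 39 RPKM in MDA-MB-231. MVD was the 1 higher, at 17.1 and 15.3 RPKM in HCC1937, against 4.24 and 3.84 RPKM in MDA-MB-231. INSIG1, the feedback sensor, had 9.8 and 18.2 RPKM in HCC1937, against 32.3 and 19.6 RPKM in MDA-MB-231, a call lost in the siLARP7 pair. DHCR7 and MSMO1, later enzymes of the pathway, were not called, with log2 ratios of 0.26 and -0.50.

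NRF2 and redox genes were higher in 8 of 18 and lower in 4, beside 14.0% and 21.4% over all genes. Of the 18, 4 entered through HCC1937 only and 1 through MDA-MB-231 only. NQO1, a quinone reductase, had 230.2 and 208 RPKM in HCC1937, against 21.6 and 20.5 RPKM in MDA-MB-231, a level 10.6-fold higher (95% interval 10.3 to 11). The aldehyde dehydrogenase ALDH1A3 had 95.7 and 92.7 RPKM in HCC1937, against 2.93 and 2.69 RPKM in MDA-MB-231. Its relative ALDH3A1 had 15.8 and 16.1 RPKM in HCC1937, against 0.0463 and 0.0431 RPKM in MDA-MB-231. Glutathione transferases ran against these. GSTP1 had 4.25 and 5.18 RPKM in HCC1937, against 128 and 139.7 RPKM in MDA-MB-231, a level 30.2-fold lower (95% interval 27.3 to 33.4). GSTM1 had 0.105 and 0.134 RPKM in HCC1937, against 7.22 and 9.37 RPKM in MDA-MB-231. The efflux pump ABCC3 was lower, at 4.02 and 4.1 RPKM in HCC1937, against 14.3 and 18.6 RPKM in MDA-MB-231. TXNRD1, thioredoxin reductase, was not called, at 56.9 and 34.2 RPKM in HCC1937, against 107 and 96.3 RPKM in MDA-MB-231. Metallothioneins, which bind zinc and copper, split 2 higher and 2 lower of 5. MT1F had 9.95 and 9.15 RPKM in HCC1937, against 2.12 and 2.06 RPKM in MDA-MB-231. MT1X had 70.8 and 53.1 RPKM in HCC1937, against 34.4 and 40.6 RPKM in MDA-MB-231, a call lost in the siLARP7 pair and with the trend on GC, length and level removed. On the lower side, MT1E had 20.2 and 13.4 RPKM in HCC1937, against 109 and 169 RPKM in MDA-MB-231. MT1A had 0.358 and 0.299 RPKM in HCC1937, against 8.91 and 10.7 RPKM in MDA-MB-231. The most abundant, MT2A, was not called, at 589 and 525 RPKM in HCC1937, against 479 and 676 RPKM in MDA-MB-231.

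Ribosomal protein genes were higher in 24 of 46 and lower in none, beside 14.0% and 21.4% over all genes, with a median log2 ratio of 1.04. RPL8 had 3434 and 4129 RPKM in HCC1937, against 487 and 456 RPKM in MDA-MB-231, a level 7.06-fold higher (95% interval 6.99 to 7.12). RPL28 had 306 and 375 RPKM in HCC1937, against 79.2 and 72.3 RPKM in MDA-MB-231. These are short genes, and the median was 0.58 with the trend on GC, length and level removed. All 13 mitochondrially encoded mRNAs were lower, and they took 0.974% and 0.745% of reads in HCC1937, against 5.33% and 7.12% in MDA-MB-231. MT-CO2, a cytochrome oxidase subunit, had 1417 and 1059 RPKM in HCC1937, against 9374 and 12332 RPKM in MDA-MB-231. MT-CO3 had 729.9 and 437 RPKM in HCC1937, against 7151 and 9387 RPKM in MDA-MB-231. MT-ND3, of complex I, had 555 and 336 RPKM in HCC1937, against 6452 and 7129 RPKM in MDA-MB-231.

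HOX genes, which keep positional identity, were lower in 15 of 32 and higher in 2, beside 21.4% and 14.0% over all genes. Of the 32, 15 entered through MDA-MB-231 only and so had to be lower, and 2 through HCC1937 only and so had to be higher. The HOXD genes were among the lowest. HOXD9 had 0.0587 and 0.0817 RPKM in HCC1937, against 14.7 and 12.9 RPKM in MDA-MB-231. HOXD10 had 0.384 and 0.279 RPKM in HCC1937, against 9.82 and 9.89 RPKM in MDA-MB-231. HOXA6 had 0.379 and 0.277 RPKM in HCC1937, against 6.93 and 5.56 RPKM in MDA-MB-231. HOXC10 and HOXC13 were higher. HOXC10 had 10.7 and 12.3 RPKM in HCC1937, against 1.5 and 2.24 RPKM in MDA-MB-231. HOXC13 had 5.77 and 6.73 RPKM in HCC1937, against 1.08 and 0.854 RPKM in MDA-MB-231. HOXB9 and HOXA10 were not called. Of 18 hormone receptor and luminal genes, 4 were tested, SLC39A6 among them. STC2, the hormone stanniocalcin, had 52.7 and 28.9 RPKM in HCC1937, against 5.42 and 4.29 RPKM in MDA-MB-231. CA12, a carbonic anhydrase, had 0.211 and 0.216 RPKM in HCC1937, against 4.76 and 2.58 RPKM in MDA-MB-231. XBP1, a secretory factor, was not called, at 33.3 and 25.7 RPKM in HCC1937, against 42.3 and 35.2 RPKM in MDA-MB-231. Of the mucins besides MUC1, MUC20 had 34 and 35.2 RPKM in HCC1937, against 0.00997 and 0.0301 RPKM in MDA-MB-231, with 2 reads behind the MDA-MB-231 control value. MUC4 had 2.84 and 3.15 RPKM in HCC1937, against 0.637 and 0.927 RPKM in MDA-MB-231. In the neural list, 2 of 6 were higher and 2 lower. UCHL1, a deubiquitinase, had 22.5 and 21.3 RPKM in HCC1937, against 6.17 and 10.7 RPKM in MDA-MB-231, its call lost in the siLARP7 pair. L1CAM, an adhesion molecule, had 2.5 and 3.0 RPKM in HCC1937, against 50.8 and 36.6 RPKM in MDA-MB-231.

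**Figure D5:**
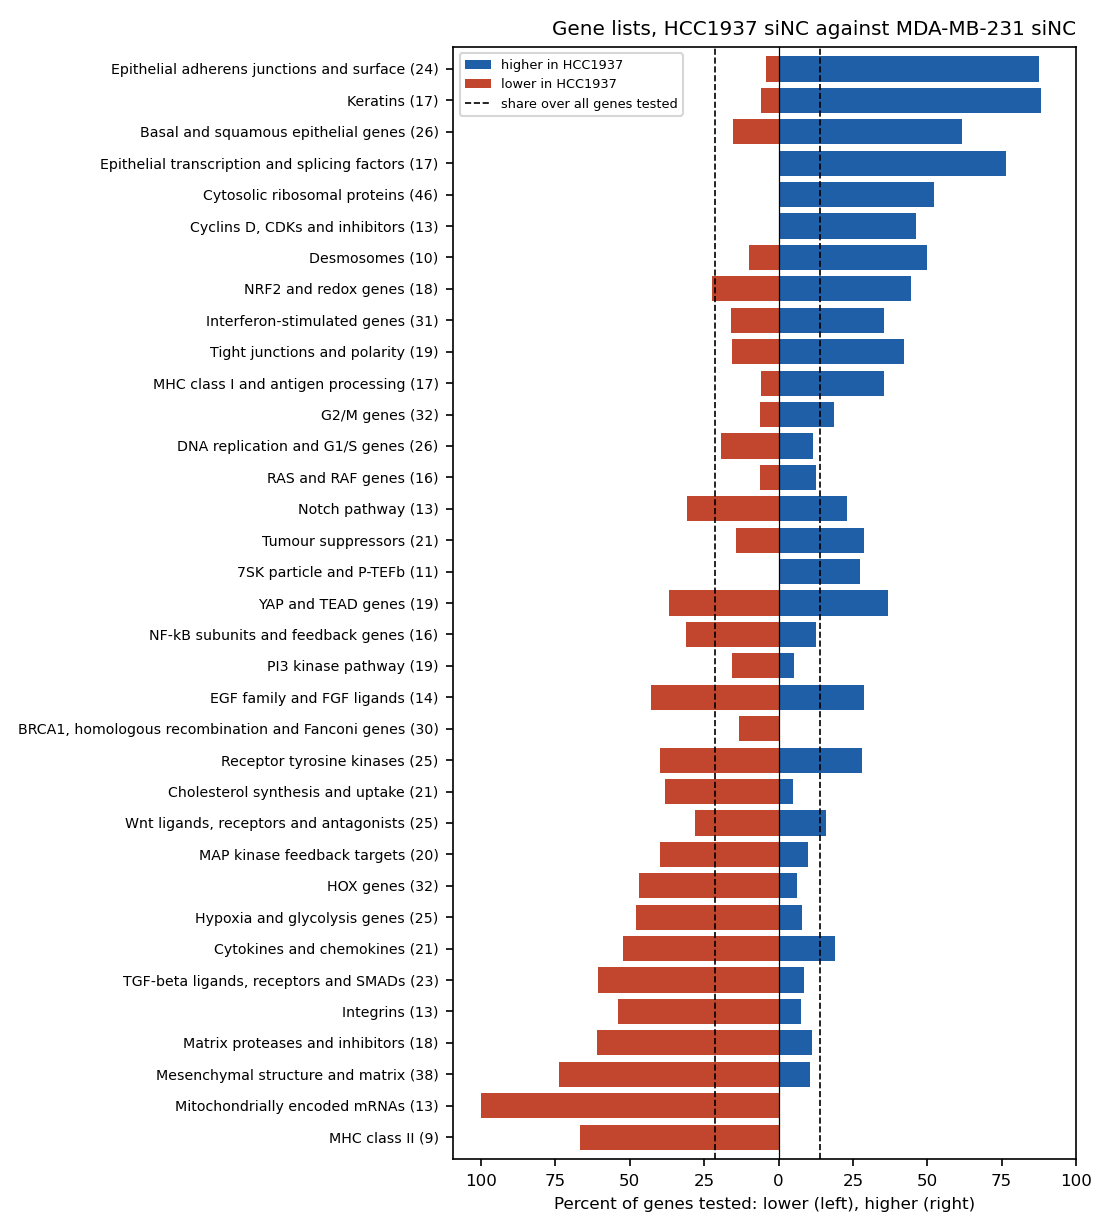
Percent of the tested genes, for lists with at least 9 tested genes, that were called higher (blue, right) or lower (red, left) in HCC1937 siNC against MDA-MB-231 siNC, with the number tested in parentheses and dashed lines at 14.0% and 21.4%, the shares over all genes. Lists are ordered by median log2 ratio, with epithelial adhesion at the top and mitochondrial mRNAs and MHC class II at the bottom.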

How the data were processed

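RNA was sequenced in 1 library each of HCC1937 and MDA-MB-231 cells with siNC or siLARP7. The submitters' processing notes name cutadapt, FastQC, STAR and the build GRCh37, without versions. The values analysed are the RPKM that the authors deposited, per the file headers. Nothing in the labels states poly(A) selection or stranded counting. Tables were joined on identifier and symbol, leaving out 47 pseudoautosomal repeats, and genes at 1 RPKM or more in either control library were compared by size on log2(RPKM + 1), since 1 library per group allows no test.

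Depth was recovered from single-exon genes under 50 reads, all of which gave whole reads within 0.01. Read numbers of other genes are approximate, from GENCODE release 29 lengths, and give the Clopper-Pearson intervals and the floor of 3 reads. PCR copies are not independent molecules, so both cover counting error only. For symbols listed more than once the entry of the primary assembly was used. Of the genes tested, 2605 had no annotation there. Gene order came from that release, without its coordinates.

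Members, 47 gene lists and the naming rule were chosen with earlier results of these data known. Named genes are the 12 highest and 12 lowest protein-coding genes called the same way in both pairs, up to 3 called in each direction and 2 uncalled per list, a panel of breast cancer genes, and the 3 longest runs in each direction; some of these, and 1 list, are not reported here. Steps used python 3.11.15, pandas 2.3.3, numpy 2.4.6, scipy 1.17.1 and matplotlib 3.10.9 and were tested on simulated data.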

Additional observations from a re-analysis of the deposited data

Results flagged for a closer look

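AC090340.1 was the single called gene whose direction differed between the pairs. It was at 0 RPKM in HCC1937 and 2.02 RPKM in MDA-MB-231 in the siNC pair, a log2 ratio of -1.59, and at 1.32 RPKM in HCC1937 and 0 RPKM in MDA-MB-231 in the siLARP7 pair, a log2 ratio of 1.21. Each pair holds 1 library per line, so the difference was not tested.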

How the results depend on the processing

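The counts of 2577 higher and 3946 lower genes were 1625 and 2389 among protein-coding genes alone and 1455 and 2207 among protein-coding genes with the trend on GC, length and level removed; both settings cover fewer genes (12257 and 12256 of 18445). With a minimum of 5 RPKM, 2402 genes were lower and 1890 higher of 10751. The counts moved by less than 1.5 times with a pseudocount of 0.1 (3322 and 5413), no minimum (2577 and 3946), scaling to a median ratio of 1 (2840 and 3709), trimmed mean scaling (2846 and 3708) and in the siLARP7 pair (2615 and 5192). Of 261 called named genes, none changed direction in these settings. A pseudocount, a level minimum or a limit to protein-coding genes cannot reverse the sign of a ratio. Some of these genes were also chosen through the same call in both pairs, so the count is a description. With the minimum of 5 RPKM, 214 of the 261 had a value. Calls lost were 17 in the siLARP7 pair, 19 with the trend removed and 1, CLDN4, under each rescaling; the cause was not tested. The median log2 ratio of 46 lists changed sign in at least 1 setting in 8 lists, the 7SK particle, replication, EGF and FGF ligand, EMT factor, metallothionein, neural, RAS and RAF and tumour suppressor genes, and moved by over 1.5 times with its sign kept in 29 others, so it is a size for its setting only. It ranged from -0.70 to -0.13 for cholesterol genes, from -1.92 to -0.78 for HOX genes and from -2.02 to -0.47 for cytokines and chemokines. The siNC comparison allowed no paired analysis because each group holds 1 library, and for the same reason no library could be left out. Depth allows a gene at 0 up to 3 reads.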
